A study of Triticum aestivum with 12 samples.

Results

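Tubulins and microtubule severing enzymes were followed in RNA-seq counts of wheat (Triticum aestivum) anthers. The members are all 72 distinct IDs that the study's list of spindle genes holds under alpha-tubulin (16 IDs), beta-tubulin (27), katanin p60 (9), katanin p80 (8), spastin (9) and fidgetin (3), out of 266760 gene models. Gamma-tubulin was not included. Of the 9 spastin IDs, 5 carry no RefSeq name beyond "uncharacterized" and stand in the list as spastin only. Groups of 3 libraries were compared: heat-stressed ‘Mv 17-09’, control ‘Mv 17-09’, heat-stressed ‘Ellvis’ and control ‘Ellvis’. Both are winter wheat cultivars, ‘Mv 17-09’ taken as heat sensitive and ‘Ellvis’ as heat tolerant, so each class of tolerance is 1 genotype. Heat-stressed plants spent 24 h at 35 °C from the day before the onset of meiosis, controls stayed in their previous growing conditions, and whole anthers were taken from the main spikes when the treatment ended.

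Microtubules are hollow polymers of alpha-tubulin and beta-tubulin, which join as a pair before they are added to the growing end. They build the meiotic spindle and the phragmoplast, the array that lays down the new cell wall between daughter nuclei. Katanin, spastin and fidgetin are AAA ATPases that cut microtubules. In katanin the p60 subunit is the ATPase and the p80 subunit, with its WD40 repeats, directs it to its sites. In Arabidopsis thaliana the fidgetin relative FIGL1 is best known for limiting crossing-over at meiosis. Hexaploid wheat carries an A, a B and a D genome, so most of these genes occur as sets of up to 3 homoeologous copies.

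Library totals ranged from 9336312 to 20846135 counts in 11 libraries, and control ‘Ellvis’ replicate 1 held 1831675. Levels are given in CPM, counts scaled to the TMM-adjusted library size, and a copy "rose" or "fell" where edgeR's quasi-likelihood test over 70527 genes gave a Benjamini-Hochberg adjusted p under 0.05. A copy was "called" where the change was also at least 2-fold. Of the 72 members, 65 passed the low-count filter and were tested, and 1, the beta-tubulin TraesCS2A03G1040100, had no count in any library. Control ‘Ellvis’ replicate 1 stood apart in the members too, as described below, so results are also given without that library. All comparisons share 1 estimate of spread, so leaving it out also changes the test in ‘Mv 17-09’. The tapetum markers were 31 copies of ACOS5, CYP703A2, CYP704B1, PKSA, PKSB, TKPR1, TKPR2, MS2 and ABCG26, a part of the study's tapetum list. Of these, 29 had counts in every library and 2 were at 0 in all. Their summed level was 5216 to 6802 CPM in heat-stressed ‘Mv 17-09’ against 21470 to 24231 CPM in its controls, and 16676 to 19487 CPM in heat-stressed ‘Ellvis’ against 17318 to 36166 CPM in its controls. The highest of these values was control ‘Ellvis’ replicate 1. All 29 tested tapetum markers fell in heat-stressed ‘Mv 17-09’ and 0 passed in ‘Ellvis’. They do not stand for the whole list: the study reported its pollen coat synthesis and callose dissolution genes as higher after heat in both cultivars. The meiotic prophase markers were 34 copies of ASY1, DMC1, SDS, SYN1, SPO11-1, SPO11-2, MSH4, MSH5, MER3, ZIP4 and PTD, a part of the study's meiosis list. All 34 had counts in each group. Their summed level was 163 to 179 CPM in heat-stressed and 163 to 189 CPM in control ‘Mv 17-09’, and 185 to 186 CPM in heat-stressed against 138, 230.1 and 232 CPM in control ‘Ellvis’, the lowest being replicate 1 and the other 2 above every heat-stressed library. Of 30 tested prophase markers 3 rose and 5 fell in ‘Mv 17-09’, and 0 rose and 2 fell in ‘Ellvis’. Of all tested genes 8.91% rose and 11.7% fell in ‘Mv 17-09’, and 3.33% rose and 3.71% fell in ‘Ellvis’. The part of these marker values in the results below was not tested. In whole anthers fewer cells of a type and less RNA per cell cannot be told apart.

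The summed level of alpha-tubulin was higher after heat in ‘Mv 17-09’. It was 3061, 3166 and 3089 CPM in heat-stressed ‘Mv 17-09’ against 2766, 2738 and 2748 CPM in its controls, a log2 ratio of the means of 0.17, with no overlap between the groups. In ‘Ellvis’ it was 2371, 2744 and 2467 CPM after heat against 1579, 2930 and 2846 CPM in controls. The log2 ratio there was 0.044 with all libraries and -0.19 without control replicate 1, so the direction in ‘Ellvis’ turned with that library. Both remaining ‘Ellvis’ controls stood above all 3 heat-stressed libraries.

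Summed beta-tubulin was 1088, 1105 and 1003 CPM in heat-stressed ‘Mv 17-09’ against 1120, 1153 and 1139 CPM in its controls, a log2 ratio of -0.095. In ‘Ellvis’ it was 1028, 1103 and 1013 CPM after heat against 763, 1370 and 1367 CPM in controls. The log2 ratio was -0.15 with all libraries and -0.39 without control replicate 1. These groups did not overlap in ‘Mv 17-09’, nor in ‘Ellvis’ once that library was left out. With library totals in place of TMM the log2 ratio in ‘Mv 17-09’ was 0.0104, so the direction of the beta sum there depended on the scaling.

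The ratio of the alpha sum to the beta sum is taken within a library and does not depend on scaling. It was 2.81, 2.87 and 3.08 in heat-stressed ‘Mv 17-09’ against 2.47, 2.37 and 2.41 in its controls. In ‘Ellvis’ it was 2.31, 2.49 and 2.44 after heat against 2.07, 2.14 and 2.08 in controls. The ratio was thus higher in every heat-stressed library than in every control of the same cultivar, and control ‘Ellvis’ replicate 1, at 2.07, lay close to the other 2 controls. Group means were 2.92 ± 0.141, 2.42 ± 0.0478, 2.41 ± 0.0926 and 2.1 ± 0.0372 (SD, n = 3 each) in heat-stressed ‘Mv 17-09’, control ‘Mv 17-09’, heat-stressed ‘Ellvis’ and control ‘Ellvis’. These are ratios of counts, not of molecules, since the copies' transcript lengths were not used.

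**Figure D1:**
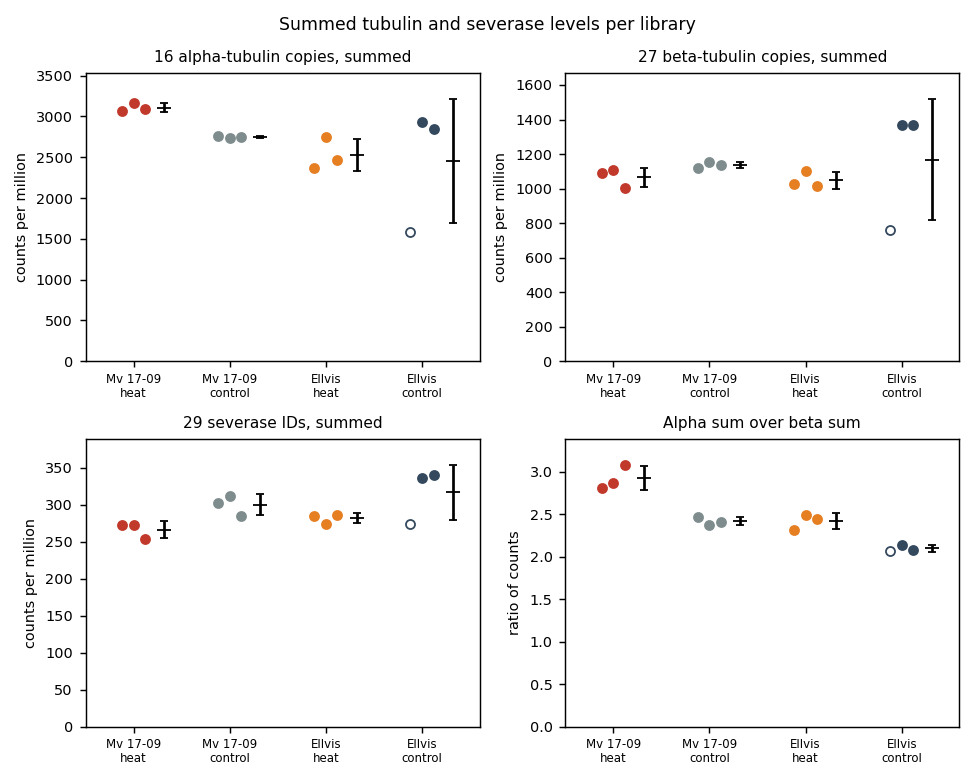
Summed level of the 16 alpha-tubulin, 27 beta-tubulin and 29 severase IDs in CPM, and the alpha sum over the beta sum, for each library by cultivar and treatment. Points are libraries, bars are the mean and SD of 3 libraries, and the open point is control ‘Ellvis’ replicate 1, the lowest control in each of the 3 sums (1579 CPM for alpha-tubulin) but close to the other controls in the ratio (2.07).

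A few copies carried most of the alpha-tubulin counts. The copies were grouped by chromosome group, RefSeq name and position, with no comparison of sequence, into 23 sets of at least 2 that hold 62 of the 72 members. The set on chromosomes 1A, 1B and 1D alone held 61.3% of the alpha-tubulin counts in heat-stressed and 61.6% in control ‘Mv 17-09’, and 52.1% in heat-stressed and 54.0% in control ‘Ellvis’. Over the 4 groups the 1D copy TraesCS1D03G0830200 (RefSeq TUBA, chromosome 1D, 440843545 to 440846305, IWGSC RefSeq v2.1) averaged 617 CPM and 22.6% of the family's counts. TraesCS1A03G0858500 averaged 544.5 CPM and 19.9%, and TraesCS1B03G0994700 (chromosome 1B, 601220015 to 601222676) averaged 403 CPM and 14.7%. The order of the first pair was not clear in every group: in ‘Mv 17-09’ controls the 1D copy had 622, 619 and 627.5 CPM and the 1A copy 616, 620.3 and 618 CPM, which overlap.

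The next alpha sets were those that RefSeq names alpha-3 on 4A, 4B and 4D, and those on 5A, 5B and 5D. TraesCS4A03G0673100, TraesCS4D03G0105300 and TraesCS4B03G0123900 of the alpha-3 set averaged 196, 170.0 and 166 CPM. The 5A, 5B and 5D copies TraesCS5A03G0967100, TraesCS5B03G1017400 and TraesCS5D03G0921200 averaged 155, 129 and 106 CPM. The set on 2A, 2B and 2D held 3.84% of the counts in heat-stressed and 3.62% in control ‘Mv 17-09’, and the alpha-2 set on 4A, 4B and 4D held under 1% in every group. The first 3 of 16 copies held 57.2% of the alpha-tubulin counts, and 7 copies held over 5% each. Between-copy levels are shares of counts and were not divided by transcript length.

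Beta-tubulin counts were spread more evenly. The first 3 of 27 copies held 28.6%, 11 copies held over 5% each, and none held over 9.97% in the mean over groups. TraesCS7D03G1078700 averaged 110.4 CPM, TraesCS1D03G0624600 104 CPM and TraesCS3A03G0797100 102 CPM. Their ranges over libraries overlap, with shares of 7.53% to 12.6%, 6.43% to 14.1% and 6.89% to 12.3%, so no order is claimed among them. At least 5% was also held by TraesCS6B03G0432100, TraesCS7A03G1132200, TraesCS3D03G0736600, TraesCS6D03G0289100, TraesCS5A03G0987200, TraesCS1A03G0663000, TraesCS1D03G0735500 and TraesCS1A03G0768600. At the other end, the beta-8 copies on 4A, 4B and 4D together held 0.378% in heat-stressed and 0.14% in control ‘Mv 17-09’.

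**Figure D2:**
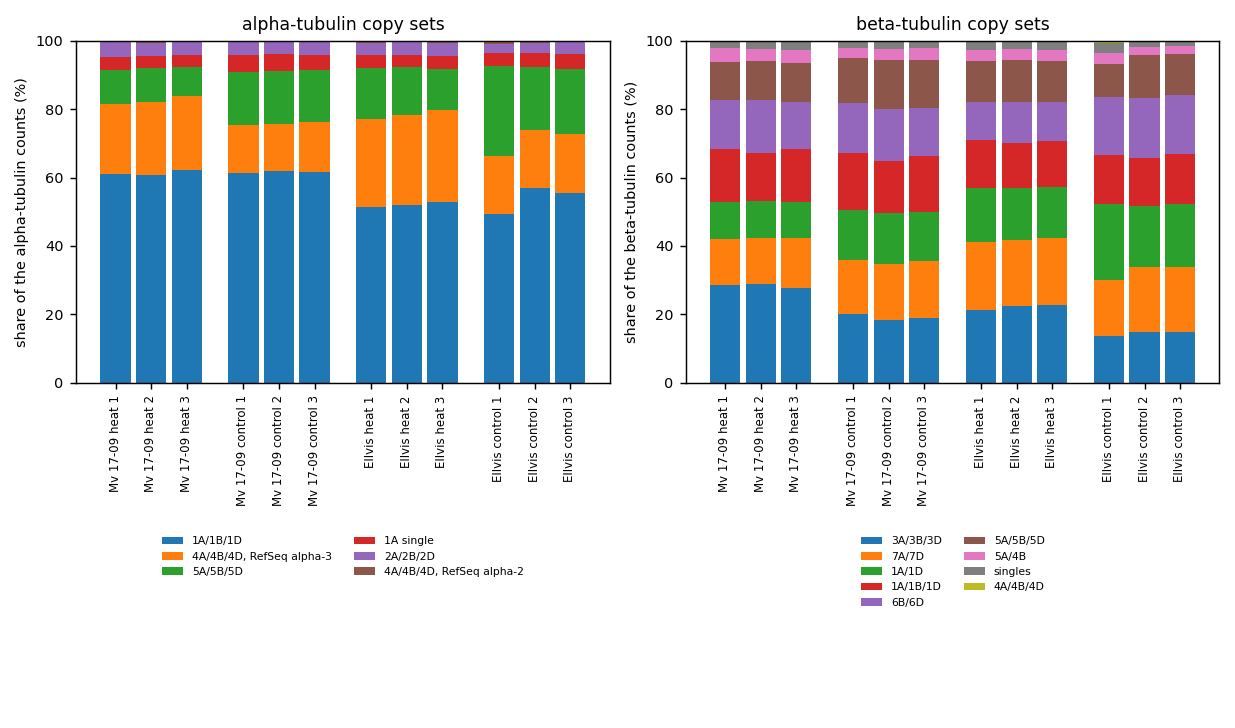
Share (%) of the alpha-tubulin counts (left) and of the beta-tubulin counts (right) that each copy set took in each of the 12 libraries, as stacked bars named by chromosome. In ‘Mv 17-09’ the alpha-3 set on 4A, 4B and 4D took 21.2% after heat against 14.2% in controls, and the beta set on 3A, 3B and 3D took 28.4% against 19.2%.

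The first question was which copies responded to heat within a cultivar. In ‘Mv 17-09’, 6 members rose and 13 fell of 65 tested in edgeR's test, where 8.91% of all tested genes rose and 11.7% fell. In ‘Ellvis’, 1 rose and 6 fell, where 3.33% of all genes rose and 3.71% fell. The median log2 fold change of the members was -0.0175 in ‘Mv 17-09’ and -0.172 in ‘Ellvis’, beside 0 and 0.00135 over all tested genes. With same-numbered libraries paired in a replicate block, 4 members passed in ‘Ellvis’ in place of 7. Most of the changes were under 2-fold: 1 member was called higher and 2 lower in ‘Mv 17-09’ (4.67% and 6.93% of all genes), and 0 higher and 2 lower in ‘Ellvis’ (1.98% and 1.64%). At an unadjusted p under 0.05 there were 30 of 65 members in ‘Mv 17-09’ and 19 in ‘Ellvis’, where 32.6% and 20.9% of all genes were. All 4 members that passed in both cultivars had the same direction in both. Of all 65 tested members 44 had the same direction, and 42 without control ‘Ellvis’ replicate 1. The share over all genes was not taken.

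More members passed without control ‘Ellvis’ replicate 1. In ‘Mv 17-09’, 14 rose and 21 fell of 66 tested (14.0% and 17.7% of all genes), and in ‘Ellvis’, 5 rose and 22 fell (8.61% and 10.4%). The members with a lower level in heat-stressed ‘Ellvis’ were 16 tubulins and 6 severases.

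Copies of the alpha-3 set rose after heat. These genes encode one of the alpha-tubulin isotypes of the wheat genome. TraesCS4A03G0673100 (chromosome 4A, 569445553 to 569448443) had 256, 278 and 267 CPM in heat-stressed ‘Mv 17-09’ against 148.5, 139 and 150.0 CPM in its controls. In ‘Ellvis’ it had 214, 251 and 235 CPM after heat against 102, 158 and 152 CPM in controls. The groups did not overlap in either cultivar. Its log2 fold change was 0.87 ± 0.17 (approximate SE, adjusted p = 0.00157) in ‘Mv 17-09’ and 0.75 ± 0.17 (adjusted p = 0.0130) in ‘Ellvis’. The rise in ‘Mv 17-09’ passed in all 19 alternatives, and that in ‘Ellvis’ in 16 of 19. In ‘Ellvis’ it was lost without heat-stressed ‘Ellvis’ replicate 2 or 3 and with each cultivar fitted alone (adjusted p up to 0.136).

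The 4D copy, TraesCS4D03G0105300 (chromosome 4D, 32836215 to 32839029), had 208, 227.5 and 232 CPM in heat-stressed ‘Mv 17-09’ against 130.5, 124 and 129 CPM in controls (log2 fold change 0.80 ± 0.21, adjusted p = 0.0120). This rise passed in 13 of 19 alternatives and was lost without heat-stressed ‘Mv 17-09’ replicate 2 or 3, without any 1 of its controls and with no low-count filter (adjusted p up to 0.0699). In ‘Ellvis’ it had 187, 219 and 203 CPM after heat against 75.7, 149 and 155.5 CPM in controls (0.65 ± 0.21, adjusted p = 0.0724). The 4B copy, TraesCS4B03G0123900 (chromosome 4B, 49788858 to 49791682), gave 0.53 ± 0.21 in ‘Mv 17-09’ and 0.59 ± 0.21 in ‘Ellvis’, with adjusted p of 0.0833 and 0.107. In all 3 copies each heat-stressed library lay above each control of its cultivar. A lack of overlap was common: 28 of 39 tested tubulins had it in ‘Mv 17-09’ and 12 of 39 in ‘Ellvis’. The share over all genes was not taken. All 3 copies passed in both cultivars without control ‘Ellvis’ replicate 1, at log2 fold changes of 0.53 to 0.86 in ‘Mv 17-09’ and 0.34 to 0.59 in ‘Ellvis’.

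The alpha set on 5A, 5B and 5D moved the other way. TraesCS5A03G0967100 had 133, 124 and 115 CPM in heat-stressed ‘Mv 17-09’ against 170.5, 176 and 167 CPM in its controls, and 133.5, 147.5 and 116 CPM in heat-stressed ‘Ellvis’ against 157, 211 and 212.5 CPM in its controls. The log2 fold change was -0.46 ± 0.16 (adjusted p = 0.0499) and -0.55 ± 0.16 (adjusted p = 0.0477). TraesCS5D03G0921200 had 79.6, 87.8 and 66.9 CPM in heat-stressed ‘Mv 17-09’ against 116, 116 and 112 CPM in its controls (-0.55 ± 0.16, adjusted p = 0.0223), and 95.3, 101 and 75.3 CPM in heat-stressed ‘Ellvis’ against 126, 143.5 and 153 CPM in its controls (-0.64 ± 0.16, adjusted p = 0.0230). The 5B copy, TraesCS5B03G1017400, fell in ‘Mv 17-09’ (-0.60 ± 0.16, adjusted p = 0.0145) and gave -0.43 ± 0.16 in ‘Ellvis’ (adjusted p = 0.129). In ‘Mv 17-09’ the 5B and the 5D copy each passed in 13 of 19 alternatives, with adjusted p up to 0.105 and 0.157, the losses being without single ‘Mv 17-09’ libraries and with no low-count filter. The 5A copy passed in 4 and the 5D copy in 7 of 19 alternatives in ‘Ellvis’. With same-numbered libraries paired in a replicate block, the adjusted p in ‘Ellvis’ was 0.113 for the 5A copy and 0.0636 for the 5D copy, so neither passed. In ‘Mv 17-09’ the 5A copy sat on the threshold and passed in 4 of 19 alternatives, the adjusted p ranging from 0.000222 to 0.312.

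The make-up of the alpha-tubulin counts differed accordingly, given here as shares with no test. The alpha-3 set took 21.2% of them in heat-stressed ‘Mv 17-09’ against 14.2% in its controls, and 26.3% in heat-stressed ‘Ellvis’ against 16.9% in its controls. The 5A, 5B and 5D set took 9.42% against 15.4% in ‘Mv 17-09’, and 13.7% against 21.3% in ‘Ellvis’ (18.7% in the controls without replicate 1). The set on 1A, 1B and 1D took 61.3% after heat against 61.6% in controls of ‘Mv 17-09’. In ‘Ellvis’ it took 51.5%, 52.1% and 52.8% after heat against 49.3%, 57.1% and 55.6% in controls, so its share after heat was below that of the controls apart from replicate 1 (56.3% in their mean).

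**Figure D3:**
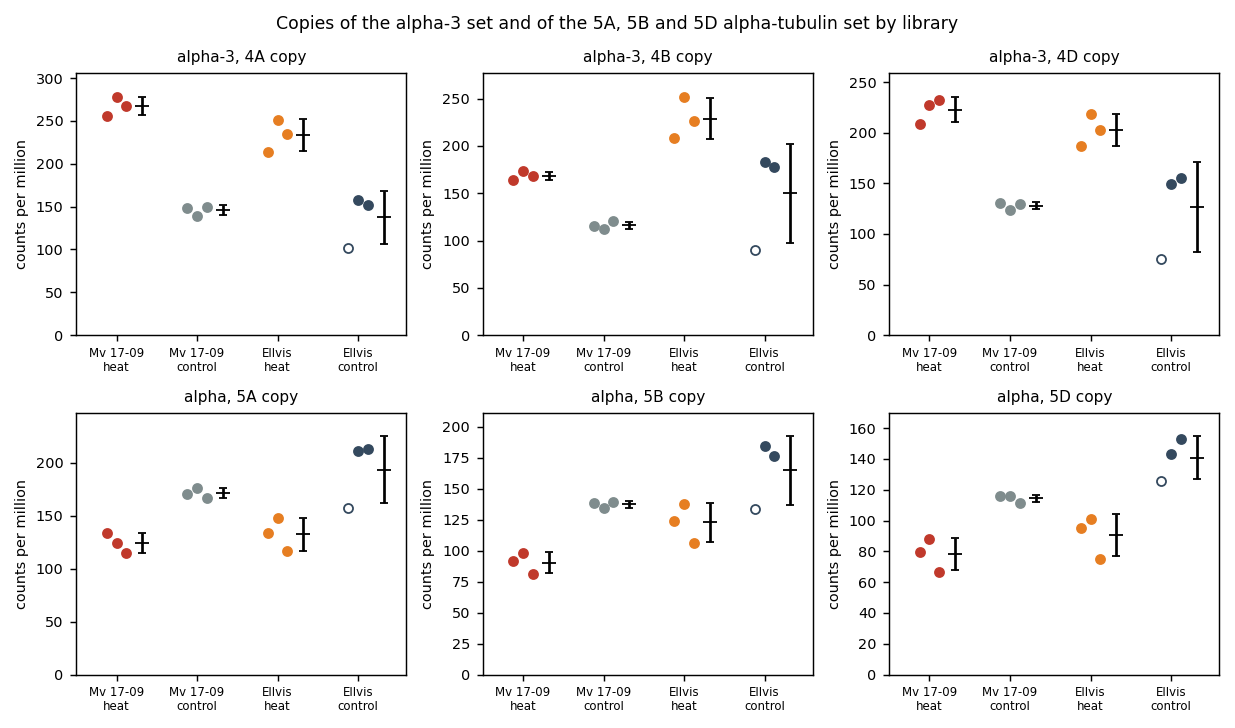
Level in CPM of the 3 alpha-3 copies (top) and of the 3 alpha-tubulin copies on 5A, 5B and 5D (bottom) in each library, with the mean and SD of 3 libraries beside the points and control ‘Ellvis’ replicate 1 as an open point. In heat-stressed ‘Mv 17-09’ the 4A copy lies at 256 to 278 CPM, above its controls, and the 5A copy at 115 to 133 CPM, below its controls.

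The most abundant alpha copies, on 1A, 1B and 1D, did not pass in either heat comparison with all libraries. The 1D copy had 745, 753 and 768 CPM in heat-stressed ‘Mv 17-09’ against 622, 619 and 627.5 CPM in its controls, a log2 fold change of 0.28 ± 0.21 (adjusted p = 0.401). In ‘Ellvis’ it had 521, 606 and 539 CPM after heat against 323, 659 and 625 CPM in controls (0.047 ± 0.21). Without control ‘Ellvis’ replicate 1 the log2 fold change of TraesCS1D03G0830200 was 0.27 in ‘Mv 17-09’ (adjusted p = 0.00605) and -0.21 in ‘Ellvis’ (adjusted p = 0.0646). TraesCS1A03G0858500 then gave 0.10 in ‘Mv 17-09’ (adjusted p = 0.302) and -0.46 in ‘Ellvis’ (adjusted p = 0.000332).

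Among the beta-tubulins 2 copies of the set on 3A, 3B and 3D rose in ‘Mv 17-09’. The summed level of that set had a log2 ratio of 0.47. The low-count beta-8 set on 4A, 4B and 4D, described further below, gave 1.35, and the beta set on 5A and 4B gave 0.13. TraesCS3D03G0736600, a beta-2 copy, had 113.5, 114 and 92.5 CPM in heat-stressed ‘Mv 17-09’ against 69.1, 61.8 and 68.2 CPM in its controls (log2 fold change 0.69 ± 0.21, adjusted p = 0.0287). In ‘Ellvis’ it had 82.6, 85.4 and 82.6 CPM after heat against 27.7, 60.3 and 61.0 CPM in controls (0.69 ± 0.21, adjusted p = 0.0614). TraesCS3B03G0918900 rose in ‘Mv 17-09’ (0.56 ± 0.18, adjusted p = 0.0345) and gave 0.52 ± 0.18 in ‘Ellvis’ (adjusted p = 0.101). The most abundant copy of the set, TraesCS3A03G0797100, gave 0.27 ± 0.19 in ‘Mv 17-09’ (adjusted p = 0.348). Its share of the set was 41.7% after heat against 47.9% in control ‘Mv 17-09’, and 39.9% against 49.1% in ‘Ellvis’. The rises in ‘Mv 17-09’ of TraesCS3D03G0736600 and TraesCS3B03G0918900 passed in 9 and 8 of 19 alternatives, with adjusted p up to 0.141 and 0.314.

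Other beta copies fell. TraesCS1D03G0624600, a beta-1 copy, had 69.9, 74.3 and 66.2 CPM in heat-stressed ‘Mv 17-09’ against 105, 111 and 104 CPM in its controls (log2 fold change -0.60 ± 0.15, adjusted p = 0.0108). This fall was lost in 4 of 19 alternatives, without heat-stressed ‘Mv 17-09’ replicate 1 or 3, without control ‘Mv 17-09’ replicate 2 and with no low-count filter (adjusted p up to 0.101). In ‘Ellvis’ it gave -0.45 ± 0.15 (adjusted p = 0.0916). The low-level copy TraesCS5A03G0178300, named after its values were seen, fell in ‘Mv 17-09’ (-0.59 ± 0.20, adjusted p = 0.0447) and gave 0.071 ± 0.18 in ‘Ellvis’. Its fall passed in 6 of 19 alternatives, with adjusted p up to 0.197. The beta-3 pair on 6B and 6D fell in ‘Ellvis’. TraesCS6D03G0289100 had 50.8, 58.5 and 51.0 CPM in heat-stressed ‘Ellvis’ against 60.5, 115 and 112 CPM in its controls (-0.87 ± 0.20, adjusted p = 0.0137), and 68.0, 77.5 and 63.0 CPM in heat-stressed ‘Mv 17-09’ against 69.7, 75.2 and 67.5 CPM in its controls (-0.027 ± 0.19). The fall of TraesCS6D03G0289100 in ‘Ellvis’ passed in 12 of 19 alternatives. It was lost without any 1 of the heat-stressed ‘Ellvis’ libraries, without control ‘Ellvis’ replicate 2 or 3, with each cultivar fitted alone and with no low-count filter (adjusted p up to 0.135). TraesCS6B03G0432100 gave -0.69 ± 0.19 in ‘Ellvis’ (adjusted p = 0.0373, and 0.0744 with the replicate block, passing in 5 of 19 alternatives) and -0.19 ± 0.19 in ‘Mv 17-09’.

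The difference between the 2 heat effects of the 6D copy was 0.84 ± 0.28 on the log2 scale and missed the threshold (adjusted p = 0.0894). Without control ‘Ellvis’ replicate 1 it was 1.05 (adjusted p = 7.33e-06), and that of the 6B copy was 0.70 (adjusted p = 0.000731).

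**Figure D4:**
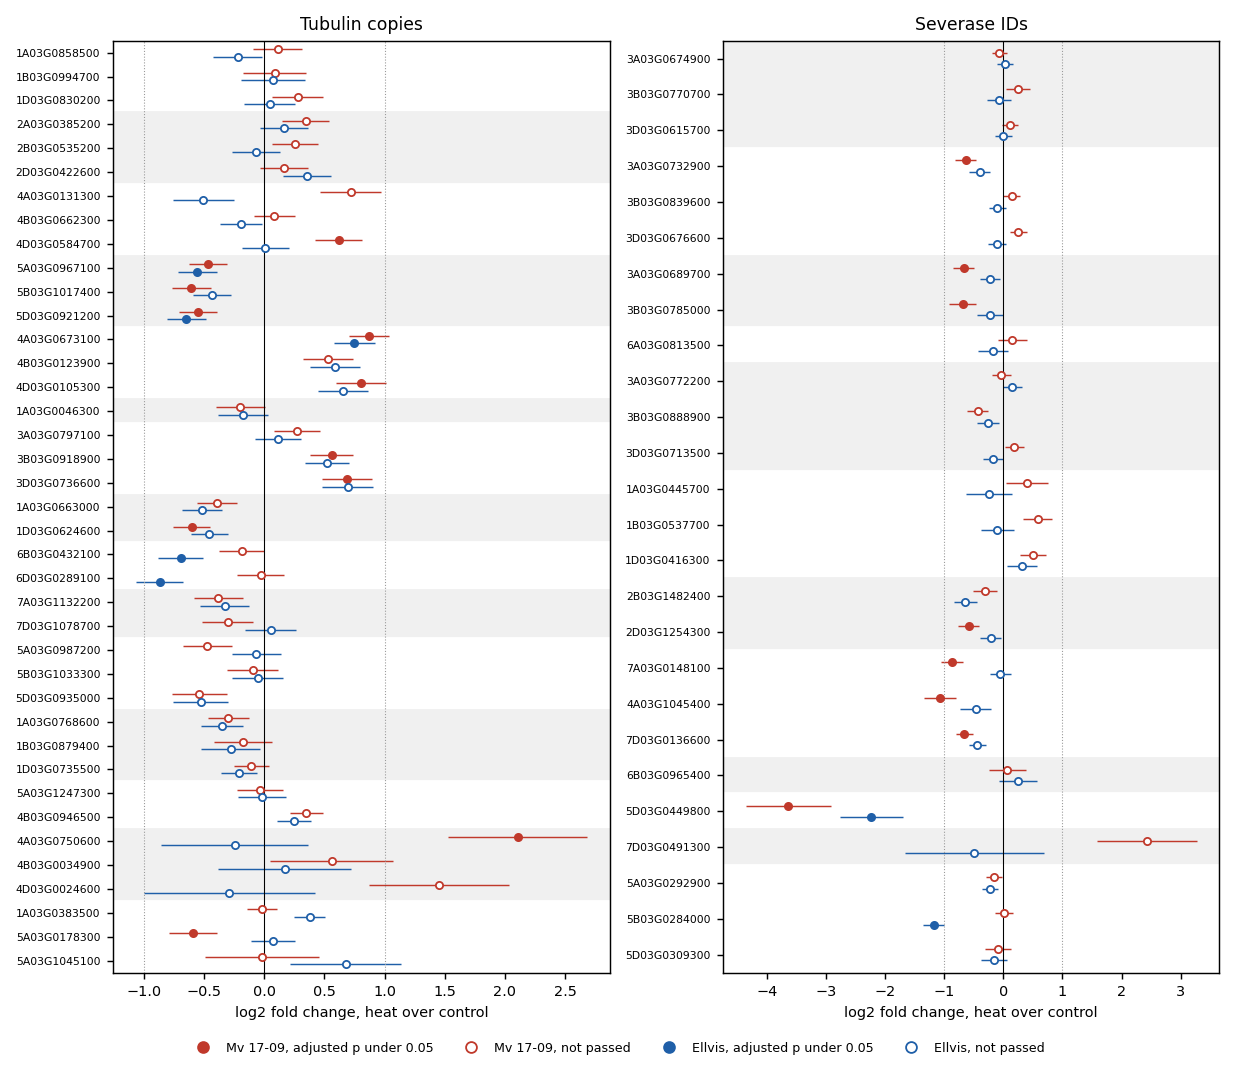
Log2 fold change of heat over control for every tested tubulin copy (left) and severase ID (right) in ‘Mv 17-09’ (red) and ‘Ellvis’ (blue), with approximate SE, where filled points have an adjusted p under 0.05 and shaded bands separate copy sets. The alpha-3 set reaches 0.87 in ‘Mv 17-09’, the beta-3 copy on 6D reaches -0.87 in ‘Ellvis’ beside -0.027 in ‘Mv 17-09’, and the FIGL1-like copy on 5B stands at -1.17 in ‘Ellvis’.

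The beta-8 copy TraesCS4A03G0750600 was the one tubulin called after heat, in ‘Mv 17-09’ (log2 fold change 2.1 ± 0.58, adjusted p = 0.0166). It rests on 9, 28 and 9 counts in heat-stressed ‘Mv 17-09’ against 5, 5 and 8 counts in its controls. Without heat-stressed replicate 2, the library with 28 counts, the log2 fold change was 1.34 (adjusted p = 0.187). The call was also lost without control ‘Mv 17-09’ replicate 1 or 2 (adjusted p = 0.0593 and 0.0802) and with the replicate block (adjusted p = 0.0521).

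The severases were far less abundant than the tubulins. Their summed level was 272, 273 and 253.5 CPM in heat-stressed ‘Mv 17-09’ against 303, 312 and 285 CPM in its controls, and 284.5, 274 and 286.5 CPM in heat-stressed ‘Ellvis’ against 273.5, 336 and 340.4 CPM in its controls. The log2 ratio was -0.17 in each cultivar with all libraries, and -0.26 in ‘Ellvis’ without control replicate 1. With library totals in place of TMM it was -0.0657 in ‘Mv 17-09’. The groups did not overlap in ‘Mv 17-09’, and in ‘Ellvis’ they overlapped through control replicate 1 alone. Katanin p60 made up most of this sum (142 CPM in heat-stressed and 154 CPM in control ‘Mv 17-09’, 158 and 171.5 CPM in ‘Ellvis’). Of 26 severases tested, 8 fell and 0 rose in ‘Mv 17-09’ (12 at an unadjusted p under 0.05, which 32.6% of all genes had), where 11.7% of all genes fell and 8.91% rose. In ‘Ellvis’ 2 fell and 0 rose (5 at an unadjusted p under 0.05, 20.9% of all genes), where 3.71% of all genes fell.

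Katanin p60 counts came mainly from the A-like 2 copies on 3A, 3B and 3D, whose highest members were TraesCS3A03G0732900 (33.8 CPM) and TraesCS3D03G0676600 (31.1 CPM). These copies differed within the set. The 3A copy had 22.5, 24.5 and 19.2 CPM in heat-stressed ‘Mv 17-09’ against 35.0, 39.4 and 28.2 CPM in its controls (log2 fold change -0.63 ± 0.18, adjusted p = 0.0195). This fall was lost in 5 of 19 alternatives, without heat-stressed ‘Mv 17-09’ replicate 1 or 3, without control ‘Mv 17-09’ replicate 1 or 2 and with no low-count filter (adjusted p up to 0.122). The 3D copy had 34.3, 35.2 and 26.6 CPM in heat-stressed ‘Mv 17-09’ against 27.8, 29.3 and 23.6 CPM in its controls (0.25 ± 0.15, adjusted p = 0.254). The 3A share of the set was 28.5% ± 1.81 after heat against 41.5% ± 2.66 in controls of ‘Mv 17-09’, and 38% ± 0.794 against 42.3% ± 3.27 in ‘Ellvis’ (SD, n = 3 each). Another A-like 2 pair, TraesCS3A03G0689700 and TraesCS3B03G0785000, fell in ‘Mv 17-09’ (-0.67 ± 0.17 and -0.69 ± 0.23). The 3B copy (adjusted p = 0.0487) passed in 5 of 19 alternatives. The 3A copy (adjusted p = 0.0105) was lost in 2 of 19, without heat-stressed ‘Mv 17-09’ replicate 1 or control ‘Mv 17-09’ replicate 2 (adjusted p up to 0.0787).

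Katanin p80 was led by the 3A, 3B and 3D set, with TraesCS3D03G0713500 at 20.1 CPM and TraesCS3B03G0888900 at 16.1 CPM. Neither passed after heat with all libraries. The 3B copy had 14.5, 14.2 and 15.6 CPM in heat-stressed ‘Mv 17-09’ against 21.2, 21.2 and 17.3 CPM in its controls (-0.43 ± 0.18, adjusted p = 0.0968). Of the 8 copies of katanin p80, 1 fell in ‘Mv 17-09’, where 11.7% of all tested genes fell, so the count is near that share. In ‘Ellvis’ 0 passed, where 3.33% of all genes rose and 3.71% fell. The one that fell, TraesCS2D03G1254300, is named after its values were seen. It had 6.36, 5.87 and 4.50 CPM in heat-stressed ‘Mv 17-09’ against 9.05, 8.55 and 7.55 CPM in its controls, without overlap (-0.59 ± 0.17, adjusted p = 0.0254). Of 26 tested severases, 13 had no overlap in that comparison. The fall passed in 12 of 19 alternatives and was lost without heat-stressed ‘Mv 17-09’ replicate 2 or 3, without control ‘Mv 17-09’ replicate 1 or 2, with library totals, with DESeq2's Wald test and with no low-count filter (adjusted p up to 0.128). In ‘Ellvis’ it had 6.34, 6.60 and 8.2 CPM after heat against 6.21, 8.12 and 8.88 CPM in controls (-0.21 ± 0.17, adjusted p = 0.532), which overlap. The summed p80 set on 1A, 1B and 1D lay higher after heat in ‘Mv 17-09’, with 0 of its copies passing. It was 10.2, 11.4 and 9.85 CPM against 6.97, 7.19 and 7.88 CPM in controls.

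Spastin fell in ‘Mv 17-09’ across its main set, on 7A, 4A and 7D. Of 6 tested spastin IDs 4 fell and 0 rose there, where 11.7% of all genes fell and 8.91% rose. The separate 6B copy, TraesCS6B03G0965400, gave a log2 fold change of 0.067 ± 0.31 (adjusted p = 0.918). TraesCS4A03G1045400 (chromosome 4A, 695094201 to 695099848) had 6.05, 6.5 and 5.99 CPM in heat-stressed ‘Mv 17-09’ against 12.5, 14.1 and 12.4 CPM in its controls (log2 fold change -1.07 ± 0.27, adjusted p = 0.0106). TraesCS7A03G0148100 had 3.65, 4.40 and 4.39 CPM against 7.44, 7.34 and 7.94 CPM (-0.87 ± 0.18, adjusted p = 0.0027). TraesCS7D03G0136600 had 11.3, 8.18 and 10.2 CPM against 16.1, 15.7 and 15.1 CPM (-0.66 ± 0.15, adjusted p = 0.00399). In each of the 3 copies every heat-stressed library lay below every control. Such separation, in either direction, was found in 13 of 26 tested severases in ‘Mv 17-09’, and its share over all genes was not taken. Each of the 3 copies kept an adjusted p under 0.05 in all 19 alternatives tried. The 4A copy's change was just under 2-fold when library totals replaced TMM.

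In ‘Ellvis’ the 4A spastin copy had 13.4, 11.98 and 12.2 CPM after heat against 36.7, 12.7 and 13.9 CPM in controls, so control replicate 1 alone was high. Its log2 fold change was -0.47 ± 0.26 with all libraries and -0.091 without that one. The difference between the 2 heat effects was -0.61 ± 0.38 (adjusted p = 0.413) for this copy and -0.82 ± 0.25 (adjusted p = 0.0683) for the 7A copy. Without control ‘Ellvis’ replicate 1 these were -0.99 (adjusted p = 0.000416) and -0.88 (adjusted p = 0.0142). The 7D copy gave -0.44 ± 0.14 in ‘Ellvis’ (adjusted p = 0.0783).

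The 5B copy of the FIGL1-like gene, TraesCS5B03G0284000 (chromosome 5B, 160645018 to 160659164), was the member whose response to heat differed between the cultivars. It had 2.38, 2.63 and 2.26 CPM in heat-stressed ‘Ellvis’ against 4.52, 5.69 and 5.52 CPM in its controls, and 9.48, 8.81 and 8.99 CPM in heat-stressed ‘Mv 17-09’ against 7.71, 8.87 and 10.4 CPM in its controls. The level in ‘Ellvis’ was below that in ‘Mv 17-09’ in every library, and the heat-stressed ‘Ellvis’ libraries were the lowest of all 12. The log2 fold change was -1.17 ± 0.18 in ‘Ellvis’ (adjusted p = 0.000854) and 0.015 in ‘Mv 17-09’. The difference between the 2 heat effects was 1.19 ± 0.23 (adjusted p = 0.00547). It passed in 17 of 18 alternatives and missed the threshold with no low-count filter (adjusted p = 0.0511). Of all members, 1 of 65 passed that test, where 6.24% of all genes did, and 8 had an unadjusted p under 0.05, which 19.7% of all genes had.

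The other FIGL1-like copies did not pass in any of the 5 comparisons. TraesCS5A03G0292900 gave a log2 fold change of -0.23 ± 0.14 in ‘Ellvis’ (adjusted p = 0.394) and -0.15 ± 0.14 in ‘Mv 17-09’, and TraesCS5D03G0309300 gave -0.16 ± 0.22 (adjusted p = 0.735) and -0.093 ± 0.22. The 5B copy took 14.6% ± 1.64 of the set's counts in heat-stressed ‘Ellvis’ against 24.5% ± 2.35 in its controls, and 37% ± 1.17 in heat-stressed ‘Mv 17-09’ against 34.6% ± 3.27 in its controls (SD, n = 3 each). How the authors' mapping shared reads among near-identical copies, and whether a cultivar's own sequence differs from the reference there, was not tested.

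**Figure D5:**
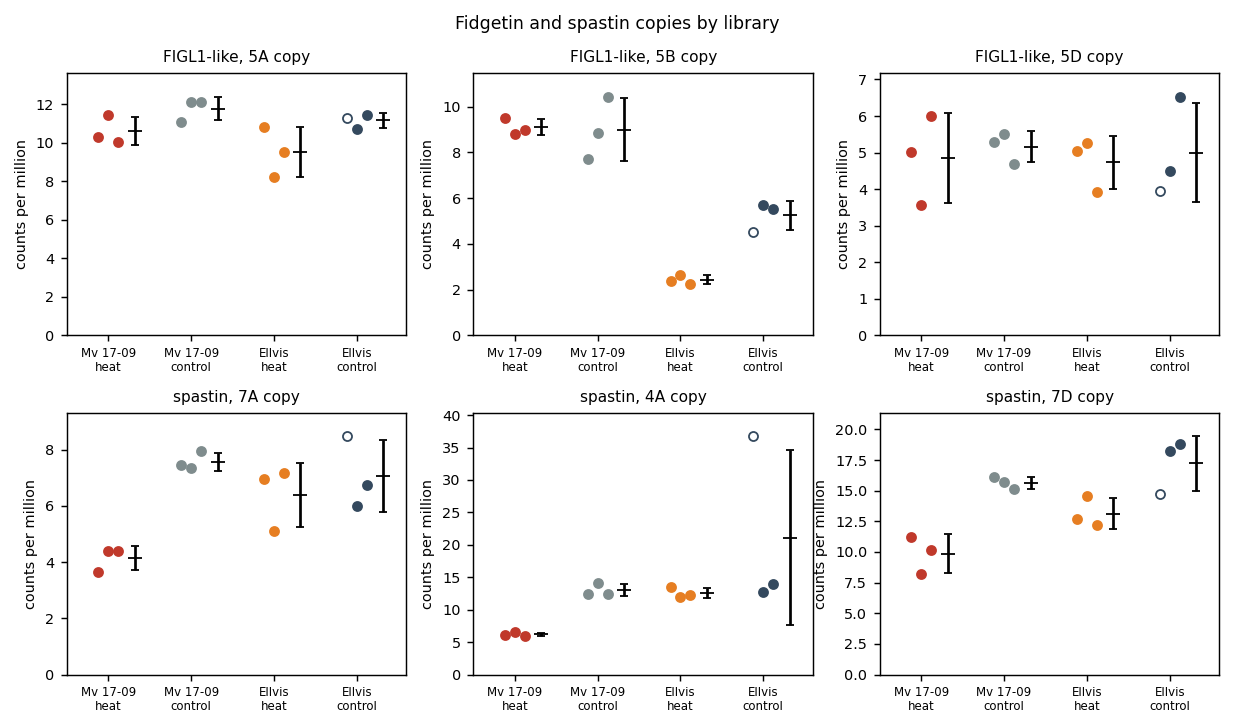
Level in CPM of the 3 FIGL1-like copies (top) and of the 3 main spastin copies (bottom) in each library, with the mean and SD of 3 libraries beside the points and control ‘Ellvis’ replicate 1 as an open point. The 5B FIGL1-like copy lies at 2.26 to 2.63 CPM in heat-stressed ‘Ellvis’, and the 4A spastin copy at 5.99 to 6.5 CPM in heat-stressed ‘Mv 17-09’.

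An ID that the list places under spastin without a RefSeq name, TraesCS5D03G0449800, was called lower in both cultivars. It had 2, 0 and 2 counts in heat-stressed ‘Mv 17-09’ against 23, 38 and 31 counts in its controls, and 14, 9 and 4 counts in heat-stressed ‘Ellvis’ against 11, 35 and 27 counts in its controls. In CPM the heat-stressed ‘Ellvis’ libraries had 0.954, 0.504 and 0.220 against 6.21, 2.07 and 1.93 in controls. The fitted log2 fold change was -3.64 ± 0.72 (adjusted p = 0.00192) in ‘Mv 17-09’ and -2.23 ± 0.53 (adjusted p = 0.0176) in ‘Ellvis’, both on few counts. The call in ‘Ellvis’ was lost without heat-stressed ‘Ellvis’ replicate 2 or 3 and with each cultivar fitted alone (adjusted p up to 0.111). Without the 5 unnamed IDs, 1 member was called higher and 1 lower in ‘Mv 17-09’, and 1 lower in ‘Ellvis’.

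Without control ‘Ellvis’ replicate 1 the test of the difference between the heat effects passed for 13 of 66 members, 11 with a higher and 2 with a lower log2 fold change in ‘Mv 17-09’ than in ‘Ellvis’ (6.03% and 9.87% of all genes). The 9 tubulins among them all had the higher value in ‘Mv 17-09’. They were the alpha copies TraesCS1A03G0858500 (0.56), TraesCS1B03G0994700 (0.34), TraesCS1D03G0830200 (0.48), TraesCS2B03G0535200 (0.50), TraesCS4A03G0131300 (1.23) and TraesCS4D03G0105300 (0.38), and the beta copies TraesCS3A03G0797100 (0.37), TraesCS6B03G0432100 (0.70) and TraesCS6D03G0289100 (1.05), each value being the difference of log2 fold changes. The other 2 with a higher value were the FIGL1-like 5B copy (1.22) and the katanin p80 copy TraesCS3D03G0713500 (0.48), and the 2 lower ones were the spastin copies on 4A and 7A. None of the 9 tubulins passed with all 12 libraries, so their passing rests on leaving out that library. The size of the difference need not: for TraesCS4A03G0131300 it was 1.22 with all 12 libraries (adjusted p = 0.0558). That copy had 5 to 52 counts a library, the lowest mean level of the 16 alpha copies.

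The cultivars were also compared directly. In controls 3 of 65 members differed and 0 were called at 2-fold, where 19.4% and 12.9% of all genes did (11 members and 31.0% of all genes at an unadjusted p under 0.05). These were the FIGL1-like 5B copy (log2 fold change ‘Mv 17-09’ over ‘Ellvis’ 0.71 ± 0.16, adjusted p = 0.00424), TraesCS1A03G0383500 (0.47 ± 0.13, adjusted p = 0.0188) and TraesCS1A03G0663000 (-0.53 ± 0.17, adjusted p = 0.0348). With the replicate block TraesCS1A03G0383500 (adjusted p = 0.0522) and TraesCS1A03G0663000 (adjusted p = 0.0818) did not pass, and these copies passed in 13 and 5 of 19 alternatives. Of 66 members, 19 differed without control ‘Ellvis’ replicate 1 (27.6% of all genes).

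After heat 16 of 65 members differed between the cultivars and 5 were called, where 34.0% and 21.9% of all genes were (26 members and 43.2% of all genes at an unadjusted p under 0.05). Without control ‘Ellvis’ replicate 1, 35 of 66 differed (45.3% of all genes). The FIGL1-like 5B copy was 1.90 ± 0.17 higher in ‘Mv 17-09’ on the log2 scale (adjusted p = 4.10e-07), and the 4A spastin copy gave -1.02 ± 0.27 (adjusted p = 0.00887). TraesCS1A03G0858500, the 1A alpha-tubulin, had 658, 676 and 670.2 CPM in heat-stressed ‘Mv 17-09’ against 379, 449 and 411 CPM in heat-stressed ‘Ellvis’ (0.69 ± 0.20, adjusted p = 0.0154). The beta copy TraesCS7D03G1078700 had 83.0, 83.2 and 88.5 CPM in heat-stressed ‘Mv 17-09’ against 128, 134 and 127 CPM in heat-stressed ‘Ellvis’ (-0.61 ± 0.21, adjusted p = 0.0366). It passed in 8 of 19 alternatives, with adjusted p up to 0.135, and the 1A copy in 13 of 19, with adjusted p up to 0.116. Among copies named after their values were seen, the beta copy TraesCS5A03G0178300 gave -0.97 (adjusted p = 0.00111) and passed in all 19. The katanin p80 copy TraesCS1D03G0416300 gave 0.82 (adjusted p = 0.00938) and passed in 17 of 19. The katanin p80 copy TraesCS1B03G0537700 had 3.44, 5.14 and 3.21 CPM in heat-stressed ‘Mv 17-09’ against 1.64, 2.24 and 1.93 CPM in heat-stressed ‘Ellvis’ (1.01 ± 0.25, adjusted p = 0.00569). Its call held in 14 of 19 alternatives, and without heat-stressed ‘Mv 17-09’ replicate 2, the library at 5.14 CPM, the log2 fold change was 0.77 (adjusted p = 0.0529). The beta-8 copy TraesCS4D03G0024600 (1.75, adjusted p = 0.0330) and the unnamed TraesCS7D03G0491300 (2.83, adjusted p = 0.0206) were also called, on at most 14 and 12 counts a library. The call of TraesCS4D03G0024600 was lost in 7 of 19 alternatives, among them the replicate block (adjusted p = 0.0609) and each fit without 1 heat-stressed ‘Mv 17-09’ library, with adjusted p up to 0.123. That of TraesCS7D03G0491300 was lost in 4 of 18, without heat-stressed ‘Mv 17-09’ replicate 1 or 3 or heat-stressed ‘Ellvis’ replicate 2 or 3, with adjusted p up to 0.107.

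Other gene groups of the microtubule system are given for scale. Of 33 tested motor and microtubule-associated protein genes, 18 fell and 2 rose in heat-stressed ‘Mv 17-09’, and 12 fell and 0 rose in ‘Ellvis’. Of all tested genes 11.7% fell and 8.91% rose in ‘Mv 17-09’, and 3.71% fell and 3.33% rose in ‘Ellvis’. Their median log2 fold change was -0.62 and -0.40. Of 27 nucleation genes, which include gamma-tubulin complex components, 6 fell in ‘Mv 17-09’ and 1 in ‘Ellvis’. Among 8 minus-end genes 1 fell in ‘Mv 17-09’ and 0 in ‘Ellvis’. The 9 plus-end genes gave the same counts, 1 and 0. Of 18 tested actin monomer genes, the subunits of the other filament system, 2 rose and 1 fell in ‘Mv 17-09’, and 2 fell in ‘Ellvis’.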

How the data were processed

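Anther RNA was depleted of ribosomal RNA, made into strand-marking libraries and sequenced as read pairs, with 3 biological replicates for each of 4 groups. Reads were checked with FastQC 0.11.8 per the submitters' processing notes. The authors trimmed the reads and mapped them with CLC Genomics Workbench to the IWGSC RefSeq v2.1 assembly, and the deposited values are raw counts per gene model. The sources used here give neither the strand setting nor the handling of reads that fit several homoeologous copies, so levels of near-identical copies are uncertain.

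Counts were analysed in R 4.3.3 with edgeR 4.0.16 (genes kept by filterByExpr at min.count 10 and min.total.count 15, TMM factors 0.92 to 1.08, quasi-likelihood test of 4 groups over 12 libraries), after a test on simulated data. P-values were adjusted by Benjamini-Hochberg over 70527 genes. Each SE is approximate, obtained by dividing the log2 fold change by the root of its F statistic. Sums and shares are descriptions without a test. DESeq2 1.42.0 and limma 3.58.1 gave alternatives. Members and lists were chosen with earlier results of these data known. The lists were taken from the study's orthologs of spindle, meiosis and tapetum genes, and the copy sets were drawn up after the values were seen. Members were named if they were among the highest 2 of a family, carried at least 5% of a tubulin family, were called, were among the 5 largest further changes of a heat comparison, or had no count. Others complete a copy set or a small count, or were named after their values were seen. RefSeq coordinates matched 68 members.

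Replicate numbers were checked for pairing by the correlation of deviations from group means over 42878 genes. Same-numbered libraries gave 0.243, 0.123 and 0.104 in ‘Ellvis’ and 0.0641, 0.0562 and 0.015 in ‘Mv 17-09’. The main fit took no libraries as pairs. The replicate block, an alternative fit, took same-numbered libraries as pairs in both cultivars, and no label gives such a pairing. Differently numbered ‘Ellvis’ libraries gave -0.255 to 0.135, the highest for heat replicate 3 with control replicate 2, so the pairing is uncertain. No library repeated another.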

Additional observations from a re-analysis of the deposited data

Results flagged for a closer look

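The heat effect on the FIGL1-like 5B copy, TraesCS5B03G0284000, differed between the cultivars: the log2 fold change in ‘Mv 17-09’ exceeded that in ‘Ellvis’ by 1.19 in the test of the difference itself (adjusted p = 0.00547). The adjusted p ranged from 0.000767 to 0.0511 over 18 alternatives, and it passed in 17 of them, missing the threshold where no low-count filter was applied.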

How the results depend on the processing

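None of the 34 passed results of copies named by rule changed direction in the 18 or 19 alternative fits run for each. Among results that did not pass, leaving out control ‘Ellvis’ replicate 1 changed the sign of 10 of 65 members for heat in ‘Ellvis’, 8 for the difference and 13 for the cultivars in controls, and of 0 for heat in ‘Mv 17-09’ and the cultivars after heat. With the study's stricter criteria (adjusted p under 1e-06) 0 members were called for heat in ‘Mv 17-09’, heat in ‘Ellvis’, their difference and the cultivars in controls and 1 for the cultivars after heat, where 3.24%, 0.696%, 0.839%, 3.85% and 6.16% of all genes were. With no minimum fold 19, 7, 3 and 16 passed for heat in ‘Mv 17-09’, heat in ‘Ellvis’, the cultivars in controls and the cultivars after heat, against 3, 2, 0 and 5 called. With limma voom 5 members were called in ‘Mv 17-09’ and 3 for the difference (15.2% and 10.6% of all genes), with no low-count filter 0 for the difference (2.91%), and with each cultivar fitted alone 1 in ‘Ellvis’ (1.90%). With the replicate block 2, 2, 1, 0 and 4 members were called for heat in ‘Mv 17-09’, heat in ‘Ellvis’, their difference, the cultivars in controls and the cultivars after heat. Of all genes 10.7%, 2.84%, 4.19%, 12.3% and 21.3% were called. In the same order 14, 4, 1, 1 and 13 members passed, where 16.9%, 4.28%, 4.40%, 16.8% and 30.5% of all genes did. By DESeq2's Wald test 16 members passed for heat in ‘Mv 17-09’ (18.3% of all genes) and 14 for heat in ‘Ellvis’ (7.0%). Leaving out each library in turn gave 2 to 5, 1 to 3, 1 to 3, 0 to 0 and 2 to 7 members called, and 6 to 35, 1 to 27, 1 to 13, 1 to 19 and 6 to 35 passed, where 12.9% to 31.7%, 2.85% to 19.0%, 3.59% to 15.9%, 13.7% to 27.6% and 25.3% to 45.3% of all genes passed, the highest counts passed being without control ‘Ellvis’ replicate 1. With library totals alone the log2 ratio in ‘Mv 17-09’ was 0.28 for alpha-tubulin, 0.0104 for beta-tubulin and -0.0657 for severases. Leaving out each library gave 0.161 to 0.185, -0.122 to -0.0536 and -0.207 to -0.137 in ‘Mv 17-09’ and -0.192 to 0.192, -0.385 to -0.0234 and -0.263 to -0.113 in ‘Ellvis’. Order of copies per coding length was not run, since no gene lengths were used here. Counts under about 30 a library limit the beta-8 and unnamed copies.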
